A study of Mus musculus with 24 samples.

Results

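The comparison set the mice exposed to maternal separation alone against the mice given a bacterial supplement alone, in RNA-seq of the prefrontal cortex. It held 12 of the series' 24 libraries, chosen by their labels: 6 of the group MS and 6 of the group Control_EC12. All were adult male wild-type mice. MS stands for maternal separation, in which pups spend part of early life away from their mother, and the labels of these mice name no supplement. The labels of Control_EC12 mice name no separation, and these mice received EC-12, a preparation of heat-killed Enterococcus faecalis, for 5 weeks per the series' design text. The other groups of 6, Control (neither exposure) and MS_EC12 (both), served as reference points. MS and Control_EC12 differed in rearing and in supplement at once, so within this comparison the part of each exposure in a difference cannot be told apart. The labels give neither the ages nor the days of separation, and they leave unsaid whether every library is a separate animal. The p-values therefore reflect variation among libraries, which may be partly technical.

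The prefrontal cortex takes part in social behaviour and in the control of the stress response. Several sets of its genes follow the state of the animal within hours. Clock genes form a transcriptional loop in which CLOCK and BMAL1 drive the Per, Cry and Nr1d genes, whose products then repress the loop. Immediate early genes such as Fos are switched on in neurons by calcium and cyclic AMP signals after activity. Chaperones of the endoplasmic reticulum fold secreted and membrane proteins, and their genes are induced together when unfolded proteins accumulate. Glucocorticoids, the adrenal stress hormones, induce a further set through their nuclear receptor.

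Total counts ran from 27772142 to 33710435 in MS and from 26250197 to 33899807 in Control_EC12. Cortical excitatory and layer markers were measured for 19 of 19 genes, summing to 2312 to 3059 CPM (library counts scaled to a common total) in MS and 2395 to 2932 CPM in Control_EC12, and none was at 0. Libraries differed in how strongly expression followed the GC content of transcripts, given here as the slope of the log2 deviation from a gene's mean per 10 percentage points of GC. The slope lay between -0.202 and -0.152 in 5 MS libraries and at 0.266 in MS replicate 3. In Control_EC12 it was 0.429 in replicate 3, 0.0964 in replicate 4 and between -0.162 and -0.0953 in the other 4. The group means of the slope were -0.10 ± 0.18 in MS and -0.00486 ± 0.234 in Control_EC12 (SD, n = 6), and the exact 2-sided permutation test gave p = 0.463. Control libraries all had a slope below 0, while MS_EC12, used here as a reference point, had 2 such libraries and 4 between 0.266 and 0.611. The mitochondrial share of counts was 6.68% ± 0.374 in MS and 7.61% ± 1.51 in Control_EC12 (SD, n = 6), with 10.5% in Control_EC12 replicate 4 (exact permutation p = 0.139, adjusted over 3 measures 0.417). Results are therefore also given for the 5 MS and 4 Control_EC12 libraries with a slope below 0, called the low-slope libraries. That subset comes from a fit to the 17 such libraries of all groups. Within it the slope averaged -0.173 ± 0.0186 in MS and -0.139 ± 0.0313 in Control_EC12 (SD, exact permutation p = 0.0556, adjusted over 3 measures 0.167), so a smaller difference in slope remained, in a narrower spread.

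Across 18380 genes tested, 24 (0.131%) differed between MS and Control_EC12 at an adjusted p under 0.05, 13 higher in MS (0.0707%) and 11 lower (0.0598%). The higher genes included 3 endoplasmic reticulum chaperones (Hspa5, Pdia6 and Pdia4), the clock repressors Per2 and Cry1, the synaptic scaffold gene Homer1 and the lipid droplet gene Plin4. The lower genes included the immediate early genes Fos and Nr4a3, the clock repressor Nr1d1, the clock output gene Nfil3, and the genes Mmp14 and Slc6a13. Fold changes were of moderate size, from 0.345 to 1.36 on the log2 scale without regard to sign. The ranges of the groups did not overlap for 19 of the 24 genes. Choosing genes by the difference between these groups favours such genes, so this count is only a description. Over all genes tested the ranges were apart for 144 genes (0.783%), the median log2 fold change was -0.0141, and 1760 genes (9.58%) had an unadjusted p under 0.05. Of these, 648 (3.53%) were higher and 1112 (6.05%) were lower in MS.

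The calls rested on the pooled spread of all 24 libraries. A fit to the 12 libraries alone called 0 genes, with a lowest adjusted p of 0.0569 and 1431 genes at an unadjusted p under 0.05, and the 24 genes had adjusted p-values from 0.0569 to 0.155 there. Leaving out 1 library changed the count to 3 without MS replicate 5, 6 without MS 4, 8 without MS 6 and 11 without MS 2. It was 9 without Control_EC12 replicate 3, 10 without Control_EC12 6, 13 without Control_EC12 2 and 16 without Control_EC12 5. Without MS 1 it was 19, without Control_EC12 1 it was 20, without Control_EC12 4 it was 26 and without MS 3 it was 32. With upper-quartile scaling in place of TMM, 20 genes were called, 8 higher and 12 lower, and limma on the deposited TPM values called 22, 16 higher and 6 lower. The low-slope libraries gave 489 genes (2.56% of 19098 tested), 244 higher and 245 lower in MS, among them all 24. With the GC slope as a covariate in all libraries, 312 genes were called (1.7%), 145 higher (0.789%) and 167 lower (0.909%). Atxn1, Mmp14 and Kcne4 passed in each of the 12 fits that left out 1 library. All 24 genes kept their sign in every one of 23 alternative fits. These fits reuse the same libraries, and the genes were chosen by their difference, so a change of sign was unlikely and the count is only a description.

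**Figure D1:**
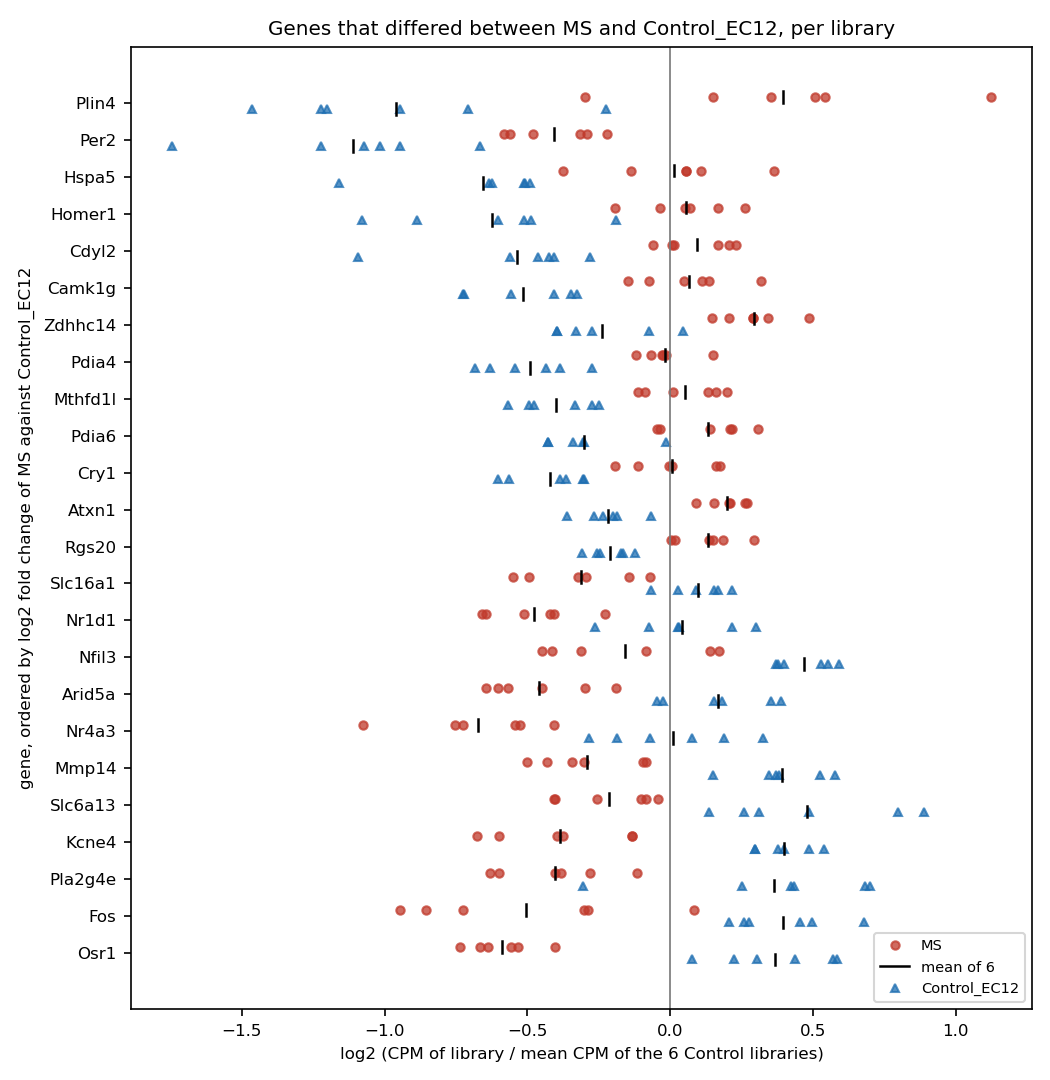
Each row is 1 of the 24 genes that passed, ordered by its log2 fold change of MS against Control_EC12, and each point is a library's log2 ratio to the mean CPM of the 6 Control libraries. MS and Control_EC12 points are separate in 19 rows and overlap in 5.

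The 24 genes were placed against untreated Control mice. The mean CPM of Control lay between the means of MS and Control_EC12 for 22 genes, the exceptions being Per2 and Pdia4. Choosing genes by the difference between these groups places another group between them in many cases, so this count is a description and supports nothing. Control_EC12 was farther from Control than MS was for 17 of the 24. These were 12 of the 13 genes higher in MS and 5 of the 11 lower in MS. The share of all genes for which this holds was not computed, so this count too is only a description. Tested against Control, none of the 24 passed in MS, where 6 genes in all were called (0.0326%), and only Per2 passed in Control_EC12, where 4 were called (0.0218%). These comparisons share libraries with one another, so their values are set side by side and no overlap was tested. Of the 6 genes called in MS against Control, Bhlhe40 and Banp are candidate genes whose values follow. Bhlhe40, which encodes a clock repressor, averaged 81.9 ± 7.78 CPM in MS, 97.7 ± 13.7 in Control_EC12 and 138 ± 10.9 in Control. Banp, which encodes a DNA-binding nuclear protein, averaged 19.4 ± 2.22 CPM in MS, 17.8 ± 1.41 in Control_EC12 and 27.7 ± 2.16 in Control. Both single exposures had lower means than Control for these genes, and the genes did not tell MS from Control_EC12 (adjusted p = 0.442 and 0.738).

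Among the 19 clock genes measured, Per2 and Cry1 were higher and Nr1d1 and Nfil3 were lower in MS. This is 2 of 19 called in each direction, against 0.0707% and 0.0598% of all genes. In each direction 5 of 19 had an unadjusted p under 0.05, against 3.53% (higher) and 6.05% (lower) of all genes. The list median was 0.0918. Per2 (Gene ID 18627, chr1:91415977-91459351), a repressor at the core of the loop, had a lowest, median and highest level of 41.4, 47.1 and 53.1 CPM in MS and 18.5, 30.02 and 39 CPM in Control_EC12. For the genes that follow, the 3 values per group have the same order. Every MS library lay above every Control_EC12 library, and the Control mean of 61.9 ± 7.88 CPM was above both group means. The log2 fold change of MS over Control_EC12 was 0.68 ± 0.140 (adjusted p = 0.0468). Against Control, Per2 stood at -0.40 in MS (adjusted p = 0.909) and at -1.08 in Control_EC12 (adjusted p = 0.00107).

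Cry1 (Gene ID 12952, chr10:85131700-85185054), the partner of the Per proteins in repression, ran at 19.6, 22.5 and 25.3 CPM in MS and 14.8, 17.3 and 18.2 CPM in Control_EC12. The ranges were apart, with a log2 fold change of 0.43 ± 0.0865 (adjusted p = 0.0414), and the Control mean of 22.4 ± 2.09 CPM was close to that of MS at 22.6 ± 2.26 CPM. Nr1d1 (Gene ID 217166, chr11:98767932-98775377) encodes REV-ERB alpha, a haem-binding repressor of Bmal1. Its levels were 67.5, 77.2 and 90.9 CPM in MS and 88.9, 109 and 131 CPM in Control_EC12, with the highest MS library just above the lowest Control_EC12 library. The difference was -0.52 ± 0.101 (adjusted p = 0.0312), and here the Control mean, 107 ± 6.96 CPM, lay near that of Control_EC12, 110.5 ± 15.3 CPM. Nr1d1 overlaps Thra on the genome, so reads of the pair could have been assigned to either.

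Nfil3 (Gene ID 18030, chr13:52967209-52982878), a repressor of D-box genes at the output of the clock, stood at 6.10, 7.29 and 9.38 CPM in MS and 10.8, 11.5 and 12.6 CPM in Control_EC12. No value was shared between the ranges (log2 fold change -0.61 ± 0.123, adjusted p = 0.0414). Per1 and Per3 did not pass. Per1, a repressor that is also induced by activity and by glucocorticoids, had means of 82.6 ± 9.17 CPM in MS and 109 ± 14.4 CPM in Control_EC12 (log2 fold change -0.40 ± 0.112, adjusted p = 0.143). Per1 thus had the sign opposite to Per2, and in the low-slope libraries it passed at -0.39 (adjusted p = 0.0126). Per3 had means of 44.2 ± 3.67 and 36.2 ± 6.25 CPM (adjusted p = 0.231). In the low-slope libraries 2 clock genes were called higher, against 1.28% of all genes, and 3 lower, against 1.28%, and these 5 were Cry1, Per2, Nr1d1, Nfil3 and Per1. Leaving out 1 library kept the call of Nr1d1 in 3 of 12 fits, of Nfil3 in 2, and of Per2 and Cry1 in 1, with adjusted p-values up to 0.129 for Nfil3 without MS replicate 5.

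**Figure D2:**
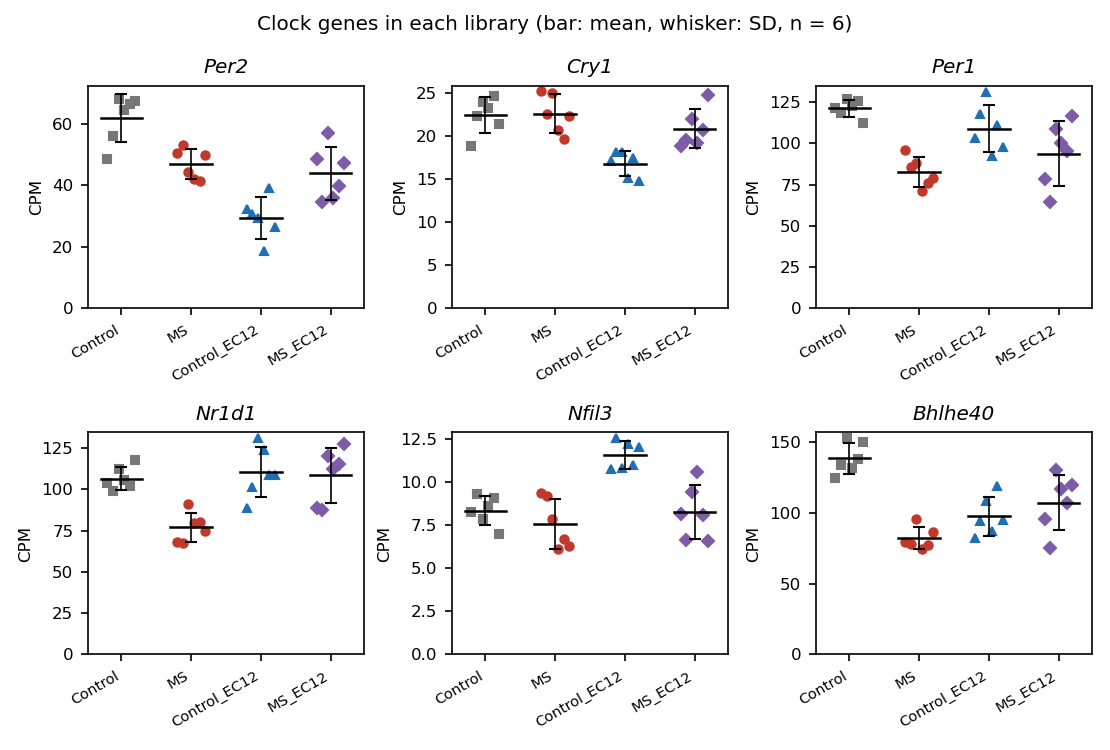
CPM of 6 clock genes in each library of the 4 groups (points), with the group mean (bar) and SD (whisker, n = 6), on axes that start at 0. Per2 averages 46.9 CPM in MS and 29.4 CPM in Control_EC12, while Nr1d1 averages 76.9 and 110.5 CPM.

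Clock activators bind the E-box, whose letters are CACGTG and which reads the same on both strands. Promoter windows of 300 bases (250 before and 50 after a RefSeq start site, GRCm38.p6) held it in 2349 of 32851 cases (7.15%). Of the clock genes with a window, 5 of 17 held it (26.1% of their 23 windows), and Cry1 was the only one of these that differed between MS and Control_EC12. Among all 24 genes, 18 had a window and 3 held an E-box: Cry1, Kcne4 and Slc16a1. The 250 bases before the start site are shown for Cry1 (chr10:85185055-85185304, minus strand), with the match in capitals starting 60 bases before the start, and for Slc16a1 (chr3:104638414-104638663, plus strand), where it starts 200 bases before it. They are printed because these genes differed in opposite directions.
Cry1: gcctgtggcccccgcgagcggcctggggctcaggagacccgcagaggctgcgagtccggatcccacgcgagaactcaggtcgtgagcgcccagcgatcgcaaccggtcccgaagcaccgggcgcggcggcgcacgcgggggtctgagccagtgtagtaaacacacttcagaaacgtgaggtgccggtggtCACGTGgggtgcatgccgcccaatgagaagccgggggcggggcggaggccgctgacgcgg
Slc16a1: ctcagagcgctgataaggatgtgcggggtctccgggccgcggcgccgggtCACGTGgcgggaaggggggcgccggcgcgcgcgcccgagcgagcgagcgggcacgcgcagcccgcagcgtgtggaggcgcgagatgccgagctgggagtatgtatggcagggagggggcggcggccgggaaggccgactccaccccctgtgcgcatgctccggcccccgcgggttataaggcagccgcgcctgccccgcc
No factor binding was measured, so the matches describe the sequence alone. Slc16a1 (Gene ID 20501, chr3:104638664-104658462) encodes MCT1, a transporter of lactate and ketone bodies found in glia and vessel walls. Its levels were 22.3, 26.4 and 31.1 CPM in MS and 31.2, 35.6 and 38 CPM in Control_EC12. The highest MS library was just below the lowest Control_EC12 library, and the log2 fold change was -0.40 ± 0.0788 (adjusted p = 0.0312).

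Chaperones of the endoplasmic reticulum mostly had positive fold changes, and 3 were higher in MS. Of 25 measured, these 3 were called higher and none lower, against 0.0707% and 0.0598% of all genes, and 13 had an unadjusted p under 0.05 in the higher direction, against 3.53%. The fold change was positive for 24 of 25, with a median of 0.243 beside -0.0141 over all genes. Hspa5 (Gene ID 14828, chr2:34772090-34776529) encodes BiP, the HSP70 chaperone of this compartment. Its lowest, median and highest levels were 215, 290.2 and 359 CPM in MS and 125, 188 and 199 CPM in Control_EC12. Every MS library was above every Control_EC12 library, with a log2 fold change of 0.67 ± 0.126 (adjusted p = 0.0284). The Control mean was 279 ± 33.3 CPM, close to the MS mean of 285 ± 48.3 CPM, and MS_EC12 averaged 216 ± 35.3 CPM.

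Pdia6 (Gene ID 71853, chr12:17266589-17284785) and Pdia4 (Gene ID 12304, chr6:47796141-47813512) encode protein disulfide isomerases, which form and rearrange disulfide bonds. Pdia6 ran at 98.4, 115 and 126 CPM in MS and 75.5, 81.2 and 101 CPM in Control_EC12, and the ranges overlapped through Control_EC12 replicate 4, at 100.6 CPM. Its log2 fold change was 0.43 ± 0.0786 (adjusted p = 0.0215). Pdia4 stood at 38.2, 40.8 and 46.1 CPM in MS and 25.9, 29.6 and 34.4 CPM in Control_EC12, with no overlap (log2 fold change 0.47 ± 0.0941, adjusted p = 0.0411). Its means in Control and MS_EC12, 41.5 ± 5.23 and 40.8 ± 5.50 CPM, were near that of MS at 41.1 ± 2.67 CPM, so Control_EC12 alone stood low. Hspa5 overlaps Rabepk and Pdia6 overlaps Atp6v1c2 on the genome, which makes their values less certain.

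Further chaperones and co-chaperones had positive fold changes without passing. Manf, a secreted resident of the compartment, averaged 39.2 ± 3.32 CPM in MS and 29.6 ± 3.16 in Control_EC12 (log2 fold change 0.41 ± 0.101, adjusted p = 0.0924). Hyou1, a large HSP70 relative, averaged 121 ± 13.2 and 98 ± 9.32 CPM (adjusted p = 0.180), and Dnajb11, a co-chaperone of BiP, 54 ± 4.35 and 45.6 ± 3.13 CPM (adjusted p = 0.165). Of the 25 chaperones, 11 were called higher and none lower in the low-slope libraries, against 1.28% of all genes, Manf, Hyou1 and Dnajb11 among them, and the list median was 0.246. Summed over the list, MS libraries held 2397 to 3043 CPM and Control_EC12 libraries 1963 to 2337 CPM, beside 2298 to 2650 CPM in Control. The list medians against Control were 0.0265 in MS and -0.153 in Control_EC12. Leaving out 1 library kept the calls of Hspa5 and Pdia6 in 6 of 12 fits and of Pdia4 in 3, and without MS replicate 5 their adjusted p-values were 0.0968, 0.0801 and 0.126. The cytosolic and mitochondrial heat shock proteins had no call in either direction among 24 measured, with a median of 0.109. At an unadjusted p under 0.05 there were 3, all higher, against 3.53% of all genes. In the low-slope libraries 3 of the 24 were called higher and 0 lower, against 1.28% of all genes, and the median was 0.128.

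The endoplasmic reticulum stress response element is the site through which unfolded proteins induce these genes. It was searched on both strands as CCAAT, then 9 bases of any kind, then CCACG, and occurred in 39 of 32851 promoter windows (0.119%). Of 22 chaperone genes with a window, 7 held it (31.8%): Calr, Canx, Creld2, Dnajc3, Hsp90b1, Hspa5 and Pdia6. Hspa5 and Pdia6 were the only genes with it among the 18 of the 24 that had a window. The 250 bases before the start site are shown for these genes and for Pdia4, which was likewise higher in MS and held no match in its window. Capitals mark the element, which starts 65 bases before the start of Hspa5 (chr2:34771840-34772089, plus strand) and 98 before that of Pdia6 (chr12:17266339-17266588, plus strand), while Pdia4 lies at chr6:47813513-47813762 on the minus strand.
Hspa5: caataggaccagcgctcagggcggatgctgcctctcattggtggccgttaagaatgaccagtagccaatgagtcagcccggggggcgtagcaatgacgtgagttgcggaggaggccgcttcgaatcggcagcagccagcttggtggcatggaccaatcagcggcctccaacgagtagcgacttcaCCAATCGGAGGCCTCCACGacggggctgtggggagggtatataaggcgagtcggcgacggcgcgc
Pdia6: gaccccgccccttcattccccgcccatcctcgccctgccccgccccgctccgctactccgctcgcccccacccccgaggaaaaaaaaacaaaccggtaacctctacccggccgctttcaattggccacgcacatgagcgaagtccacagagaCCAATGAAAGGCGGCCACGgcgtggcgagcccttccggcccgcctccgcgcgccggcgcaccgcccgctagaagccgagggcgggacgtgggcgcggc
Pdia4: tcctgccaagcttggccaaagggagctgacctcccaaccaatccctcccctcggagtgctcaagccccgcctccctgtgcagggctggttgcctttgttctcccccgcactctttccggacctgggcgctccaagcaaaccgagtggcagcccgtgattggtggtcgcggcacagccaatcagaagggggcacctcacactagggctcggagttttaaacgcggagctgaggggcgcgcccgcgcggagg
The absence of a match in Pdia4 says only that these letters are not in this window.

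Among immediate early genes, Fos and Nr4a3 were lower in MS, and Homer1 was higher. These were the calls among 37 measured, 2 lower against 0.0598% of all genes and 1 higher against 0.0707%. At an unadjusted p under 0.05 there were 17 lower (6.05% of all genes) and 4 higher (3.53%), and the list median was -0.376. Fos (Gene ID 14281, chr12:85473890-85477274), a subunit of the AP-1 transcription factor, stood at 21.8, 29.6 and 44.4 CPM in MS and 48.4, 54.1 and 67.2 CPM in Control_EC12. The highest MS library was below the lowest Control_EC12 library, and the log2 fold change was -0.86 ± 0.152 (adjusted p = 0.0155). The Control mean, 41.9 ± 5.12 CPM, fell between them, and MS_EC12 averaged 34 ± 6.47 CPM.

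Nr4a3 (Gene ID 18124, chr4:48045078-48086447), an orphan nuclear receptor induced by cyclic AMP and calcium, ran at 24.6, 33.5 and 39.1 CPM in MS and 42.7, 52.1 and 65.1 CPM in Control_EC12. The ranges did not overlap (log2 fold change -0.68 ± 0.139, adjusted p = 0.0442). Control_EC12 and Control had nearly the same mean, 52.8 ± 8.51 and 52 ± 8.11 CPM, and MS_EC12 averaged 27.5 ± 6 CPM. Homer1 (Gene ID 26556, chr13:93303757-93405129) encodes a scaffold of the postsynaptic density and, as a short form, an activity-induced protein that loosens it. Gene counts do not separate the forms. Homer1 levels were 153, 182 and 209 CPM in MS and 82.5, 119 and 153 CPM in Control_EC12, with the highest Control_EC12 library just above the lowest MS library. The log2 fold change was 0.66 ± 0.124 (adjusted p = 0.0284), with a Control mean of 174 ± 19.2 CPM.

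The remaining immediate early genes named here did not pass. Egr4, a zinc-finger factor, averaged 24.8 ± 4.95 CPM in MS and 40.6 ± 4.94 CPM in Control_EC12 (log2 fold change -0.71 ± 0.153, adjusted p = 0.0591). Fosb, an AP-1 subunit, averaged 19.4 ± 3.30 and 33.4 ± 6.14 CPM (adjusted p = 0.0616), and Ier2 8.42 ± 2.19 and 13.4 ± 1.94 CPM (adjusted p = 0.0808). Arc, a synaptic effector, spread widely, from 52.5 to 218 CPM in MS and from 114 to 229 CPM in Control_EC12 (log2 fold change -0.36 ± 0.303, adjusted p = 0.780). Bdnf, the neurotrophin, had the opposite sign at 0.33 ± 0.155 (adjusted p = 0.499). In the low-slope libraries 9 immediate early genes were called lower and only Homer1 higher, against 1.28% of all genes in each direction, Fosb, Egr4 and Ier2 among the lower, and the list median was -0.365. The mean log2 CPM of the list ran from 4.513 to 5.03 in MS and from 4.989 to 5.238 in Control_EC12, with MS replicates 6, 4 and 5 lowest. The same 3 libraries were lowest among MS in olfactory bulb markers, at a mean log2 CPM of 3.532, 2.379 and 2.898, beside 3.953 to 4.403 in the other 3. Without MS 4 and 5 the median of the immediate early genes was -0.341 and that of the olfactory bulb markers -0.498, and Fos stood at -0.72 (adjusted p = 0.232). Against Control the list median was -0.312 in MS and 0.0206 in Control_EC12. Fos passed in 9 of 12 fits that left out 1 library, Homer1 in 5 and Nr4a3 in 2, with adjusted p-values up to 0.0657 and 0.0968 without MS replicate 5 and 0.134 without MS replicate 4.

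**Figure D3:**
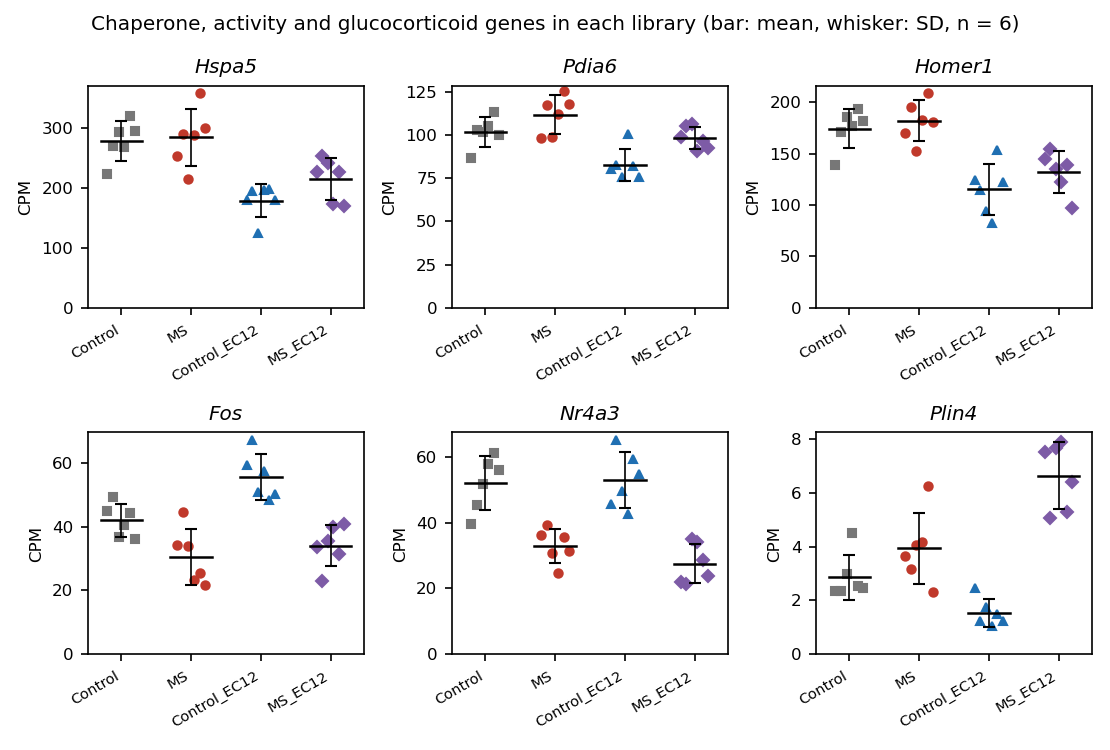
CPM of 2 endoplasmic reticulum chaperones, 3 activity-linked genes and Plin4 in each library of the 4 groups (points), with the group mean (bar) and SD (whisker, n = 6), on axes that start at 0. Fos lies at 48.4 CPM or above in Control_EC12 and at 44.4 CPM or below in MS, and Hspa5 is separate in the opposite direction.

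Plin4 was the gene with the largest fold change among the 24. Plin4 (Gene ID 57435, chr17:56100587-56109948) encodes a perilipin that coats lipid droplets and is induced by glucocorticoids. It stood at 2.33, 3.86 and 6.24 CPM in MS and 1.04, 1.37 and 2.45 CPM in Control_EC12. The lowest MS library was below the highest Control_EC12 library, and the log2 fold change was 1.36 ± 0.228 (adjusted p = 0.0138). Control averaged 2.86 ± 0.837 CPM, between the groups, and MS_EC12 was highest at 6.62 ± 1.24 CPM. Levels this low make Plin4 imprecise, its span overlaps Hdgfl2, and without MS replicate 5 its adjusted p was 0.0524.

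Plin4 was the only call among 23 glucocorticoid-induced genes, against 0.0707% of all genes in that direction. The list median was -0.0345. In each direction 5 genes had an unadjusted p under 0.05, against 3.53% (higher) and 6.05% (lower) of all genes. Fkbp5, a co-chaperone that limits receptor sensitivity, ran at 34.4, 36.5 and 41.5 CPM in MS and 29.6, 30.6 and 32.7 CPM in Control_EC12. Its ranges were apart, yet its log2 fold change of 0.27 ± 0.0678 missed the threshold (adjusted p = 0.0924) and passed in the low-slope libraries at 0.28 (adjusted p = 0.0314). Hif3a stood at 0.88 ± 0.248 (adjusted p = 0.144), and Cebpd and Errfi1 had the opposite sign at -0.63 ± 0.181 and -0.23 ± 0.0650 (adjusted p = 0.159 and 0.136). Cebpd also passed in the low-slope libraries, at -0.74 (adjusted p = 0.0224), where 2 members of the list were called higher and 2 lower, against 1.28% of all genes in each direction. The glucocorticoid receptor gene Nr3c1 averaged 98.8 ± 11.3 CPM in MS and 86.9 ± 19.8 CPM in Control_EC12 (adjusted p = 0.740). Of 12 genes of corticosteroid receptors and CRH signalling none passed. Crhr1, the main receptor of corticotropin-releasing hormone, had a highest MS value of 32.2 CPM just above the lowest Control_EC12 value of 32 CPM. Its log2 fold change of -0.44 ± 0.107 did not pass (adjusted p = 0.0894), and it passed in the low-slope libraries at -0.54 (adjusted p = 0.0196). Mc4r, a melanocortin receptor gene of the same list, passed there in the other direction at 0.83 (adjusted p = 0.0407), so 1 of 12 was called each way, against 1.28%.

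Receptors for social peptides and serotonin gave no call. Oxtr, the oxytocin receptor, averaged 9.76 ± 1.16 CPM in MS and 8.79 ± 1.36 CPM in Control_EC12 (log2 fold change 0.15 ± 0.114, adjusted p = 0.747), and the vasopressin receptor gene Avpr1a was below 2 CPM in every library of both groups. Of 12 serotonin receptor genes, 4 had an unadjusted p under 0.05 and all 4 were higher in MS, against 3.53% of all genes, with a list median of 0.195. Htr1b, an inhibitory receptor on axon terminals, ran at 20.1, 26.1 and 29.5 CPM in MS and 13.8, 16.7 and 19.1 CPM in Control_EC12. Its ranges were apart with a log2 fold change of 0.64 ± 0.137 (adjusted p = 0.0577). Htr1b, Htr2c and Htr4 passed in the low-slope libraries, at 0.63, 0.46 and 0.71, against 1.28% of all genes called higher there.

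Markers of meningeal and perivascular fibroblasts mostly had negative fold changes. Of the 41 lists, this one had the most members at an unadjusted p under 0.05 in proportion to its size. Of 24 measured, Slc6a13 alone was called, 18 had an unadjusted p under 0.05 in the lower direction against 6.05% of all genes, and 8 had ranges apart against 0.424%. The fold change was negative for 23, with a median of -0.436. The summed level of the list was 371.5 to 425.9 CPM in MS and 459.6 to 588.8 CPM in Control_EC12, with no overlap, beside 399.5 to 478.8 CPM in Control and 360.9 to 489.7 CPM in MS_EC12. No member was at 0 in all 12 libraries. In whole tissue, fewer cells of a type and less RNA per cell cannot be told apart, and the amount of meninges left on the tissue is not given in the labels. Slc6a13 (Gene ID 14412, chr6:121300288-121337721), a GABA and taurine transporter of the meninges, stood at 8.09, 9.51 and 10.4 CPM in MS and 11.8, 14.2 and 19.9 CPM in Control_EC12. Its ranges were apart, and the log2 fold change was -0.72 ± 0.136 (adjusted p = 0.0284).

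Other members stood at similar differences without passing. The amino acid transporter gene Slc6a20a had a log2 fold change of -0.55 ± 0.127, Slc13a4, a sulfate transporter gene, -0.54 ± 0.126, and the fibrillar collagen gene Col3a1 -0.53 ± 0.128 (adjusted p = 0.0808, 0.0808 and 0.0852). The growth factor genes Bmp7 and Bmp6 stood at -0.47 ± 0.114 and -0.51 ± 0.126 (adjusted p = 0.0889 and 0.0894). Of the 24 fibroblast markers, 10 were called lower and none higher in the low-slope libraries, against 1.28% of all genes, and the median was -0.466. Mural cell markers, which label pericytes and smooth muscle of vessels, had no call among 15. At an unadjusted p under 0.05, 3 were lower (6.05% of all genes) and 1 was higher (3.53%). They summed to 180.1 to 220.3 CPM in MS and 219.3 to 260.3 CPM in Control_EC12. In the low-slope libraries 2 of the 15 mural markers, Vtn and Pdgfrb, were called lower, against 1.28% of all genes. Vtn, a secreted matrix protein gene of pericytes, averaged 49.2 ± 6.51 and 71.1 ± 12.8 CPM (log2 fold change -0.53 ± 0.120, adjusted p = 0.0761).

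Of the other genes lower in MS, 3 are known for roles in connective tissue or vessels. Mmp14 (Gene ID 17387, chr14:54431598-54442456), a membrane-bound metalloproteinase that cleaves collagen, ran at 9.86, 11.2 and 13.2 CPM in MS and 15.5, 18.1 and 20.9 CPM in Control_EC12 (log2 fold change -0.68 ± 0.107, adjusted p = 0.0120). Osr1 (Gene ID 23967, chr12:9574442-9581500), a zinc-finger factor of mesenchymal cells, stood at 1.30, 1.43 and 1.64 CPM and 2.28, 2.81 and 3.25 CPM (log2 fold change -0.96 ± 0.158, adjusted p = 0.0138). Kcne4 (Gene ID 57814, chr1:78816911-78820032), a modulatory subunit of voltage-gated potassium channels that is found in smooth muscle, stood at 1.32, 1.62 and 1.93 CPM and 2.60, 2.77 and 3.08 CPM (log2 fold change -0.77 ± 0.132, adjusted p = 0.0138). The ranges were apart for all 3 genes, and Osr1 and Kcne4 stayed under 4 CPM throughout. Like the summed level of the fibroblast markers, all 3 were lower in MS. Within Control_EC12 that sum was lowest in replicate 3 (459.6 CPM) and highest in replicate 2 (588.8 CPM). In these replicates, in that order, Osr1 stood at 3.25 and 2.67 CPM and Kcne4 at 2.79 and 2.60 CPM. Mmp14 went the other way, at 18.1 and 20.1 CPM. The part of tissue composition in the 3 genes was not tested.

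Pla2g4e and Arid5a completed the genes lower in MS. Pla2g4e (Gene ID 329502, chr2:120166412-120245630) encodes a phospholipase A2 family enzyme that makes N-acyl phospholipids, precursors of endocannabinoid-like lipids. It ran at 4.61, 5.43 and 6.59 CPM in MS and 5.79, 9.62 and 11.6 CPM in Control_EC12, where 1 library fell within the range of MS (log2 fold change -0.79 ± 0.134, adjusted p = 0.0138). Arid5a (Gene ID 214855, chr1:36307733-36324037), a nucleic acid-binding protein gene known for stabilising inflammatory transcripts such as that of interleukin 6, ran at 6.31, 6.96 and 8.67 CPM and 9.58, 11.1 and 12.9 CPM with no overlap. Its log2 fold change was -0.62 ± 0.117 (adjusted p = 0.0283).

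Of the 6 other genes higher in MS, several are known from neurons or metabolism. Atxn1 (Gene ID 20238, chr13:45549755-45964991), a chromatin-linked repressor gene whose expansion causes spinocerebellar ataxia, had the smallest p of all. It ran at 101, 109.8 and 115 CPM in MS and 74.1, 81.8 and 90.8 CPM in Control_EC12. Every MS library was above every Control_EC12 library, with a log2 fold change of 0.42 ± 0.0628 (adjusted p = 0.0120), and the Control mean of 95.1 ± 6.75 CPM lay between the groups. Camk1g (Gene ID 215303, chr1:193346346-193370355), a calmodulin-dependent kinase gene active in neurite growth, ran at 31.9, 37.3 and 44 and 21.3, 25.3 and 28.1 CPM, a difference of 0.58 ± 0.118 (adjusted p = 0.0442). Control_EC12 was the low group here, since Control and MS_EC12 averaged 35.3 ± 4.21 and 44.5 ± 8.99 CPM. Zdhhc14 (Gene ID 224454, chr17:5492562-5753891), a palmitoyltransferase gene, ran at 43.1, 47.6 and 54.5 and 29.6, 31.6 and 40.2 CPM, a difference of 0.52 ± 0.102 (adjusted p = 0.0312). Rgs20 (Gene ID 58175, chr1:4909573-5070299), which encodes a regulator that speeds GTP hydrolysis by G proteins, ran at 38.6, 42.5 and 47.2 and 31.1, 33.4 and 35.3 CPM, a difference of 0.35 ± 0.0715 (adjusted p = 0.0468).

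Cdyl2 (Gene ID 75796, chr8:116568723-116732991), a chromodomain protein gene, stood at 21.5, 23.9 and 26.3 CPM in MS and 10.5, 16.5 and 18.5 CPM in Control_EC12. The ranges were apart (log2 fold change 0.61 ± 0.107, adjusted p = 0.0155), and the Control mean of 22.4 ± 2.18 CPM was nearer to MS. Mthfd1l (Gene ID 270685, chr10:3972892-4167081), an enzyme gene of mitochondrial one-carbon metabolism that yields formate, stood at 11.9, 13.6 and 14.8 and 8.69, 9.74 and 10.8 CPM (log2 fold change 0.45 ± 0.0876, adjusted p = 0.0312). Its ranges were also apart, and its Control mean, 12.9 ± 0.972 CPM, was near the MS mean of 13.4 ± 1.23 CPM. In the postsynaptic scaffold list of 27, Homer1 was the only call, and Homer3, its relative, had the opposite sign at -0.53 ± 0.132 (adjusted p = 0.0924).

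Immune gene lists gave no call in either direction, and their medians lay below 0. Of 20 antigen presentation genes, 12 had an unadjusted p under 0.05, all lower in MS against 6.05% of all genes, and the median was -0.366. H2-Ab1, a class II chain gene, ran at 1.78, 2.20 and 3.38 CPM in MS and 2.98, 3.87 and 5.16 CPM in Control_EC12 (log2 fold change -0.77 ± 0.179, adjusted p = 0.0808). H2-Q4, a class I gene with close copies among which reads may be split, stood at -0.61 ± 0.156, and the peptide transporter gene Tap1 at -0.56 ± 0.147 (adjusted p = 0.0999 and 0.114). Of 30 interferon-stimulated genes, 11 were lower in MS at an unadjusted p under 0.05 and none was higher (median -0.323). Oasl2, an antiviral gene, stood at 1.30, 2.02 and 2.81 CPM in MS and 2.52, 3.87 and 5.01 CPM in Control_EC12 (log2 fold change -0.84 ± 0.184, adjusted p = 0.0678), and Irf7, a driver of interferon production, at -0.69 ± 0.186 (adjusted p = 0.122). Complement genes had a median of -0.188 over 16, with 2 lower and none higher at an unadjusted p under 0.05, and bacterial sensing and innate cytokine genes -0.118 over 34, with 4 lower and 1 higher. Blood markers stood on the same side, with a median of -0.308, 8 of 9 negative and 3 lower at an unadjusted p under 0.05. They summed to 183.1 to 296.3 CPM in MS and 228.6 to 377.3 CPM in Control_EC12, and their part in the immune lists was not tested.

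Set against Control, the antigen presentation median was 0.0176 in MS, 0.444 in Control_EC12 and 0.398 in MS_EC12, the other group given EC-12. The mean log2 CPM of the list was 2.068 and 1.93 in the 2 MS_EC12 libraries with a slope below 0. That is within the Control range of 1.751 to 2.107, while the other 4 MS_EC12 libraries ran from 2.168 to 2.588. The interferon-stimulated median was -0.0499 in MS, 0.226 in Control_EC12 and -0.0678 in MS_EC12. The mean log2 CPM of this list was 2.081 and 1.957 in the 2 MS_EC12 libraries with a slope below 0. In the other 4 it ran from 1.468 to 1.825, beside 1.584 to 1.952 in Control. The part of the GC slope in the MS_EC12 values of both lists was not tested. The complement median was -0.00163 in MS and 0.203 in Control_EC12. The bacterial sensing median was -0.0377 in MS and 0.062 in Control_EC12, and that of the blood markers -0.115 and 0.151. The mean log2 CPM in the 12 libraries ran from 1.666 to 2.475 for antigen presentation and from 1.314 to 2.377 for interferon-stimulated genes. Counting error is larger at such levels than at higher ones. In the low-slope libraries 2 antigen presentation genes, H2-D1 and H2-Q4, and 1 interferon-stimulated gene, Oasl2, were called lower (1.28% of all genes). H2-D1 was picked after its value was seen. The cytokine gene Il1b was below 1 CPM in all 12 libraries (adjusted p = 0.779).

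Markers of tissue that borders the prefrontal cortex varied between libraries. Olfactory bulb markers had a median of -0.829 over 16 genes, none called and 11 lower at an unadjusted p under 0.05 (6.05% of all genes), and summed to 358.3 to 693.3 CPM in MS and 588.5 to 1124 CPM in Control_EC12. The mean log2 CPM of this list was lowest in MS replicates 4 and 5, at 2.379 and 2.898. Th, which marks dopamine neurons of the bulb, ran at 4.65, 14.1 and 20.8 CPM in MS and 17.8, 25 and 48.1 CPM in Control_EC12 (adjusted p = 0.359). Striatal markers had a positive fold change for 24 of 25 genes and a median of 0.246, none called and 6 higher at an unadjusted p under 0.05 (3.53% of all genes). Their median was 0.416 in the low-slope libraries, where 4 were called higher against 1.28% of all genes: Tac1, Pdyn, Pde10a and Penk, the last named after its value was seen. They summed to 3330 to 4432 CPM in MS and 2553 to 4319 CPM in Control_EC12. Pde10a, a phosphodiesterase gene of striatal projection neurons, ran at 342, 391 and 474 CPM in MS and 152, 262 and 314 CPM in Control_EC12, with no overlap (log2 fold change 0.66 ± 0.157, adjusted p = 0.0808). Hypothalamic and septal markers had a median of 0.414 over 14 genes, none called and 1 higher at an unadjusted p under 0.05. Within MS they were highest in replicates 1 and 4, at a mean log2 CPM of 2.841 and 2.24, beside 2.296 in Control_EC12 replicate 4. The median of these markers was 0.697 in the low-slope libraries. Nts and Otp were called higher there, against 1.28% of all genes, Otp named after its value was seen.

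Pairs of MS libraries were left out in alternatives added after the data were seen. Without MS replicates 4 and 5, 2 genes were called, and without MS replicates 1 and 4, 1 was called, while leaving out MS 5 or MS 4 alone already gave 3 or 6. All 24 genes kept their sign in both fits. Their log2 fold changes were 0.82 to 1.18 times those of the full fit without MS 4 and 5, and 0.855 to 1.13 times without MS 1 and 4. The part of dissection in the 24 genes was not tested.

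No marker of the main cortical cell types was called in the fit to all libraries. Excitatory and layer markers had a median of 0.0981, cortical interneuron markers -0.0667, astrocyte markers -0.0702, oligodendrocyte markers -0.0208, microglial markers -0.0861 and endothelial markers -0.17. The low-slope libraries gave 3 calls among these lists, which hold 19, 16, 18, 23, 20 and 20 members in that order. Over all genes 2.56% were called there, so the count is near that share. The 3 genes were named after their values were seen. Foxp2, a layer marker, was higher in MS, and the astrocyte gene Gfap and the microglial gene Sall1 were lower. Mbp, a major myelin protein gene, averaged 2297 ± 406 CPM in MS and 2424 ± 310.2 CPM in Control_EC12 (adjusted p = 0.912). All 77 cytosolic ribosomal protein genes had a negative fold change, with a median of -0.119 and no call, and the median became 0.0282 in the low-slope libraries. The 74 nuclear respiratory chain genes went from -0.0674 to 0.0723 in the same way. The direction of these lists therefore changed with the libraries used, while those of the chaperones, immediate early genes and fibroblast markers did not.

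**Figure D4:**
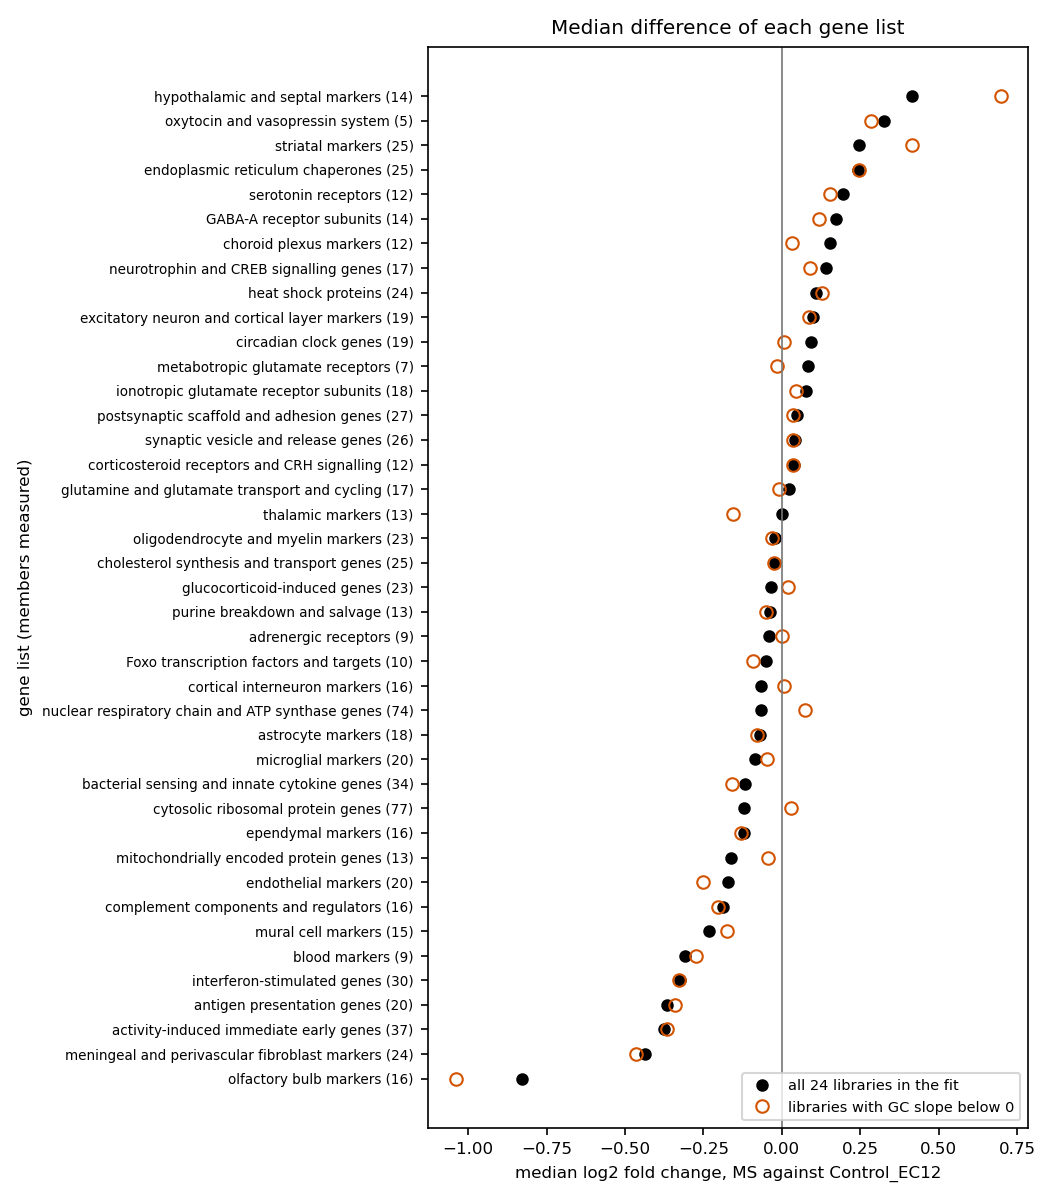
Median log2 fold change of MS against Control_EC12 for each of the 41 gene lists, with the number of members measured, in the fit to all 24 libraries (filled) and in the low-slope libraries (open). The chaperone median is 0.243 and 0.246, the immediate early gene median -0.376 and -0.365, and the ribosomal protein median changes sign from -0.119 to 0.0282.

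**Figure D5:**
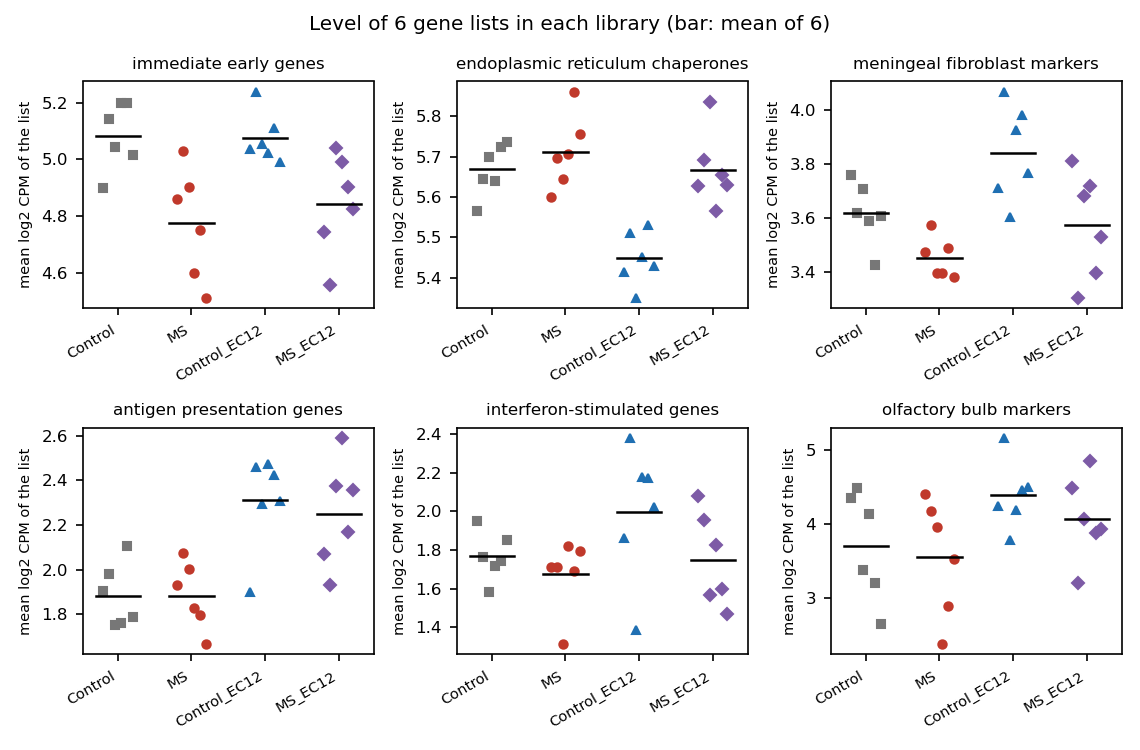
Mean log2 CPM of 6 gene lists in each library of the 4 groups (points), with the group mean (bar). The chaperone list runs from 5.601 to 5.861 in MS and from 5.351 to 5.531 in Control_EC12 without overlap, and the olfactory bulb list spreads from 2.379 to 4.403 within MS.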

How the data were processed

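RNA-seq counts of prefrontal cortex were analysed for 24 libraries, 6 per group, with groups and replicate numbers taken from the labels. Read counts per gene, whole numbers that the authors deposited without normalization, were available for 45777 genes, beside TPM values computed by the authors. The tools in the submitters' processing notes are HISAT2 2.1.0 and StringTie 2.1.3b, with Trimmomatic 0.38, FastQC 0.11.7 and DESeq2, and the build is mm10. Per the labels' protocols the library kit was stranded, but how reads were assigned to genes and strands is not given in the sources used here. Deposited FPKM values were not used here. RefSeq GRCm38.p6 matched 99.79% of Gene IDs and supplied coordinates and promoters.

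Genes were filtered with filterByExpr (minimum count 10, minimum total 15), leaving 18380, scaled by TMM and tested in edgeR 4.0.16 (R 4.3.3) by its quasi-likelihood F test, with 1 coefficient per group over all 24 libraries and Benjamini-Hochberg adjustment over all genes. Log2 fold changes are given ± their standard error, and CPM values as mean ± SD (n = 6) or as the lowest, median and highest library. CPM is not divided by gene length, so levels compare between libraries, not between genes. The GC slope used 92.7% of genes tested, those with a GC content from GENCODE transcripts. No pair of the 12 libraries was a duplicate, the smallest chi-square per gene being 5.68. DESeq2 1.42.0, limma 3.58.1 on log2(TPM + 1) and log2(TPM + 0.1), and other settings were tried as alternatives. The steps were tested on simulated data.

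The comparison, its gene lists and candidate genes were chosen with earlier results of these data known. Named are up to 15 passing genes per direction, at most 6 members per list (those that pass, then by smallest p) and the candidates. Genes whose spans overlap, gene copies that are nearly identical and antisense pairs could share reads, so their values are less certain. Counts in single digits are imprecise at this depth.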

Additional observations from a re-analysis of the deposited data

Results flagged for a closer look

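A library stood apart from the other 5 of its group in 4 of 54 checks, made on the library measures and on the 24 genes in MS and Control_EC12. The measure is the gap from the extreme library to its nearest neighbour as a share of the group's whole range. Values above Dixon's critical value for 6 libraries are listed, which chance exceeds in about 1 of 20 groups. The GC slope of MS replicate 3, 0.266, gave a share of 0.892 in MS. Hspa5 in Control_EC12 gave 0.787, with replicate 3 lowest at 125 CPM. Pdia6 in Control_EC12 gave 0.694, with replicate 4 highest at 100.6 CPM, and Cdyl2 in Control_EC12 gave 0.656, with replicate 4 lowest at 10.5 CPM. Control_EC12 replicates 3 and 4 were also the 2 of that group with a GC slope above 0. In the low-slope libraries, which leave both out, the log2 fold changes of MS against Control_EC12 were 0.67 for Hspa5, 0.52 for Pdia6 and 0.50 for Cdyl2.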

How the results depend on the processing

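The 24 genes that differed between MS and Control_EC12 kept their sign in all 23 alternatives, which reuse the same libraries. They passed in 5 (Per2) to 22 (Atxn1) of these. Their count was 179 with DESeq2, 13 with no filter on low counts, 0 in a fit to the 12 libraries only, 489 in the low-slope libraries and 312 with the GC slope as covariate, and 3 to 32 with 1 library left out. Without the 2 MS libraries lowest in olfactory bulb markers it was 2, and without the 2 highest in hypothalamic markers 1, both chosen after the data were seen. In the low-slope libraries the counts were 83 for MS against Control (6 in the report's fit), 87 for Control_EC12 against Control (4) and 193 for MS_EC12 against Control (2594), where 2 of 6 MS_EC12 libraries remained. The cause of these shifts was not tested. Genes that missed the threshold changed sign for Crhr2 (0.00935) and Xdh (-0.0495) in the low-slope libraries, Mbp (0.0016) with the covariate, and Oxt (-1.27) and Avpr1a (-0.0201) without the 2 MS libraries highest in hypothalamic markers. Shared replicate numbers were not taken as pairs, since the labels state no pairing. With group means removed, correlations of same-numbered MS and Control_EC12 libraries ran from 0.0128 to 0.575, and 1 of 6 MS libraries correlated best with its own number. The highest was that of replicate 3, whose GC slope was 0.266 in MS, 0.429 in Control_EC12 and 0.489 in MS_EC12. Whether a shared number marks a shared batch was not tested. With the replicate number as a block, the counts were 81 for MS against Control_EC12, 10 for MS against Control, 33 for Control_EC12 against Control and 5939 for MS_EC12 against Control. Depth limits the genes at a few CPM, such as Osr1, Kcne4 and the interferon-stimulated genes.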
